A study of Mus musculus with 6 samples.

Results

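Glucose enters mammalian cells through the facilitative carriers of the SLC2 (GLUT) family, and lactate and pyruvate cross the plasma membrane through the proton-linked monocarboxylate carriers of the SLC16 (MCT) family. GLUT1 is the widespread carrier for basal uptake, GLUT3 is a high-affinity carrier best known from neurons, and GLUT4 is the insulin-regulated carrier of muscle and fat. MCT1 and MCT4 reach the cell surface together with the membrane glycoprotein basigin, and MCT4 is the lactate exporter typical of glycolytic cells. The 10 genes described here are Slc2a1, Slc2a3, Slc2a4, Slc2a6, Slc2a8, Slc2a10, Slc16a1, Slc16a3, Slc16a7 and Bsg, taken by name from the platform annotation. They are 10 of the 17097 genes on the array and have 17 of its 45037 probe sets that are not array controls. A probe set counted for a gene where the annotation gave it that single symbol, and every such probe set is reported.

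The labels describe the samples as fibroblasts that came from mouse embryonic stem cells, either wild type (WT) or with the heavy chain of CD98 deleted (CD98hc KO), and the markers below go against this for the KO-labelled arrays. CD98hc is the Slc3a2 product that carries the light chains of several amino acid transporters to the cell surface. Cells of both genotypes grew in high-glucose DMEM with serum and β-mercaptoethanol, and total RNA was hybridised to Affymetrix perfect-match (PM) mouse genome arrays, 3 arrays labelled WT and 3 labelled KO, with replicate numbers 1, 3 and 5 under each label. Nothing in the sources ties the arrays of a label to separate cultures or to more than 1 clone, and the spread behind each p-value may be technical. Values are RMA expression on the log2 scale, which can be compared between arrays for a probe set but not between probe sets. No detection calls were used. The 23 probe sets for nonspecific hybridisation had means over the arrays from 3.28 to 8.32, with a median of 4.23. Folds taken from levels close to the median are low estimates, and all values of Slc2a4, Slc2a6, Slc2a8, Slc2a10 and Slc16a7 lay within the range.

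The arrays carry limits that touch every comparison below. Slc3a2 had 1 probe set, which rose from 10.60 ± 0.087 with the WT label to 11.58 ± 0.056 with the KO label (SD, n = 3 each), against the direction of a deletion. Whether its probes lie in the deleted part is not known here. Whether the labels were exchanged was not tested, and an exchange would turn every direction given here. Higher and lower therefore mean the KO-labelled relative to the WT-labelled arrays throughout. Pluripotency markers (19 measured) included 18 higher and 0 lower genes, and their summed linear signal was 1141 to 1260 under the WT label and 36626 to 40936 under the KO label. Of 19 fibroblast markers, 13 were lower and 1 higher, with a summed signal of 30111 to 43301 under the WT label and 3561 to 4940 under the KO label. The fibroblast genes Lum and Pdgfra lay near the nonspecific median on all 6 arrays. Of 14 epithelial markers, 13 were higher and 0 lower, with a summed signal of 573 to 610.1 under the WT and 3631 to 5306 under the KO label. Beside these marker counts, 21.6% of all genes were higher and 18.4% lower. The label and these marker differences cannot be told apart, and in bulk RNA a change in the share of a cell type cannot be told from a change per cell. The 9 hybridisation controls were on average 1.25 lower (log2) on both replicate 3 arrays than on the others. The labels name no batch. Results were therefore also computed with replicate 3 against the others as a covariate and within replicates 1 and 5.

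Among the 10 genes, 4 were higher on the KO-labelled arrays (Slc2a1, Slc2a3, Slc2a4 and Slc2a8), 2 were lower (Slc16a3 and Bsg), and 4 did not pass the test (Slc2a6, Slc2a10, Slc16a1 and Slc16a7). A gene passed at an adjusted p under 0.05 in limma, and a gene with several probe sets was counted by the one with the largest SD over the 6 arrays. Over all genes, 40% passed by the same rule, 21.6% higher and 18.4% lower, so a call by itself was common on these arrays. With a change over 2-fold also required, Slc2a3, Slc2a4 and Slc2a8 were higher and Slc16a3 was lower, against 9.24% and 10.1% of all genes. The WT-labelled and KO-labelled values did not overlap for 7 of the 10 genes, against 51.5% of all genes. By probe set, 9 of the 17 were higher and 2 lower, where 32.7% of all probe sets passed in either direction, and 13 of the 17 did not overlap, against 45.9% of all. The median log2 fold change was 0.01 over the 10 genes and 0.02 over all genes, and the single changes ran from −1.60 to 7.87.

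**Figure D1:**
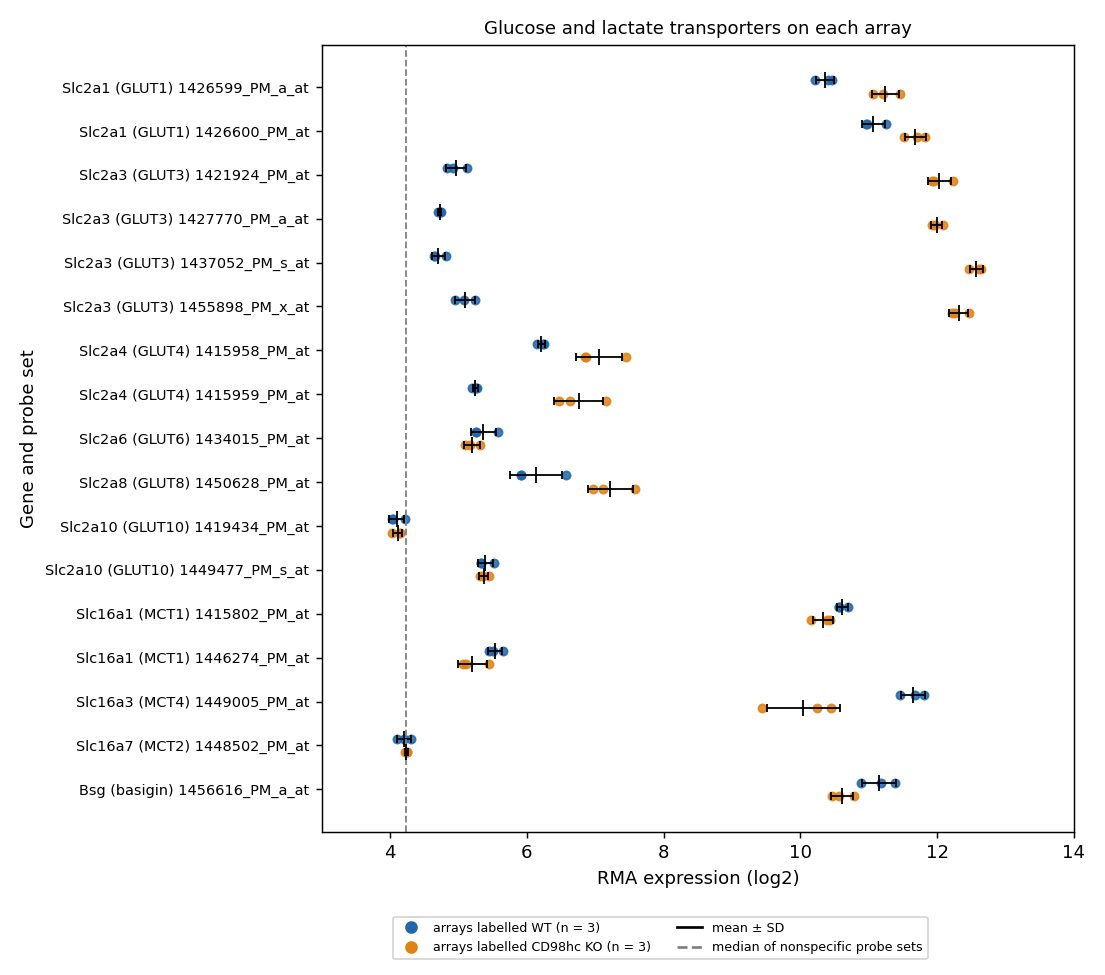
RMA expression (log2, horizontal axis) of the 17 probe sets of the 10 transporter genes on each array labelled WT (blue) or CD98hc KO (orange), with black marks for mean ± SD per label and the nonspecific median (4.23) dashed. All 4 Slc2a3 probe sets lie between 4.64 and 5.24 under the WT label and between 11.92 and 12.64 under the KO label, while Slc16a3 is the gene furthest to the left of its WT-labelled values.

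Slc2a3, which encodes GLUT3, had by far the largest change of the group. The most variable of its 4 probe sets (1437052_PM_s_at) had values of 4.64, 4.81 and 4.66 with the WT label and of 12.47, 12.64 and 12.61 with the KO label. The 3 WT-labelled values were close to the nonspecific median and the 3 KO-labelled values lay far above them, with no overlap. This is a change of 7.87 ± 0.083 (log2 ± SE, limma adjusted p = 6e-07), or 234-fold on this scale with a 95% interval from 204 to 268 that covers the spread between arrays only. Since the WT-labelled values were near background, the fold is a low estimate. Probe sets with the suffix s or x can share probes with other transcripts, but the other Slc2a3 probe sets without these letters gave like values. Probe set 1421924_PM_at rose from 4.96 ± 0.15 to 12.03 ± 0.17 (SD, n = 3 arrays per label). Probe set 1427770_PM_a_at rose from 4.72 ± 0.02 to 11.99 ± 0.08, and 1455898_PM_x_at from 5.09 ± 0.15 to 12.31 ± 0.14. Across the 4 probe sets the log2 fold change lay between 7.08 and 7.87, and the adjusted p from limma did not exceed 1.1e-06. The size of the increase therefore did not rest on a single probe set.

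GLUT3 is a carrier of neurons, and neuronal markers were read on the same arrays. Of 9 measured markers, 5 were higher on the KO-labelled arrays and 0 were lower, led by Stmn2 (log2 fold change 3.73) and Nefl (3.50), with a summed signal of 495 to 749 under the WT label and 2070 to 2344 under the KO label. The other 4 did not pass, among them Rbfox3 and Snap25, which differed by 0.04 and 0.06. Snap25 and Nefm lay near the nonspecific median on all 6 arrays. Of 12 markers of endoderm and trophoblast, 2 were higher (among them Eomes, 3.87) and 3 lower (among them Dab2, −3.87). Their summed signal was 1209 to 1276 under the WT label and 825 to 1146 under the KO label. In that list Foxa2, Gata4 and Sox17 were near the nonspecific median on all 6 arrays. Beside the counts of both marker lists, 21.6% of all genes were higher and 18.4% lower. The part of other cell types in the Slc2a3 signal was not tested. The genes whose centred values lay nearest to those of Slc2a3 over the 6 arrays were Bex1, Zfp42 and Pou5f1, at Euclidean distances of 0.26, 0.76 and 0.83 on the log2 scale. Such a distance mostly reflects a like difference between the labels, here changes of 7.95, 7.30 and 7.23. The same holds for the nearest patterns given below. Zfp42 and Pou5f1 are transcription factor genes of pluripotent cells.

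Slc2a1, which encodes GLUT1, was also higher on the KO-labelled arrays, by less than 2-fold. Its more variable probe set (1426599_PM_a_at) had values of 10.21, 10.47 and 10.40 with the WT label and of 11.20, 11.45 and 11.06 with the KO label. Every KO-labelled value was above every WT-labelled value, and within each label the replicate 3 array was the highest. This is a change of 0.88 ± 0.12 (log2 ± SE, limma adjusted p = 0.0022), or 1.84-fold with a 95% interval from 1.5 to 2.26. The second probe set (1426600_PM_at) read 10.96, 10.98 and 11.25 against 11.71, 11.82 and 11.51. These values did not overlap either, and the change was 0.62 ± 0.12 (log2 ± SE, limma adjusted p = 0.0084). Within replicates 1 and 5 alone this second probe set differed by 0.50 and no longer passed (limma adjusted p = 0.077), whereas the first had an adjusted p under 0.05 in all 14 alternative fits made for it, although it stayed under 2-fold. The nearest patterns to Slc2a1 were those of Crbn, Acad11 and Polr2d, at distances of 0.09, 0.12 and 0.14. The arrays read transcripts, not protein or transport. The paper reported less GLUT1 protein in total membranes of its CD98hc KO cells, and lower glucose uptake. How the transcript and the protein relate was not tested.

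Slc2a4, which encodes GLUT4, had low values under the WT label and moderate ones under the KO label. Probe set 1415959_PM_at had values of 5.20, 5.25 and 5.27 with the WT label and of 7.16, 6.64 and 6.47 with the KO label. The groups lay apart, and the KO-labelled arrays spread more widely (SD 0.36 against 0.04, n = 3 each), with replicate 1 the highest. This is a change of 1.51 ± 0.17 (log2 ± SE, limma adjusted p = 0.00097), or 2.85-fold. The second probe set (1415958_PM_at) read 6.25, 6.15 and 6.23 against 7.44, 6.85 and 6.87, again with KO replicate 1 the highest and without overlap. It differed by 0.84 ± 0.17 (log2 ± SE, limma adjusted p = 0.0091). The probe sets thus had the same direction and fell on either side of 2-fold.

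The other SLC2 members of the group reside mainly on membranes inside the cell. Slc2a8, which encodes GLUT8, a carrier of endosomes and lysosomes, had values of 5.91, 5.91 and 6.57 with the WT label and of 7.58, 6.96 and 7.11 with the KO label. The highest WT-labelled value, that of replicate 5, lay below the lowest KO-labelled value, so the groups did not overlap. This is a change of 1.09 ± 0.24 (log2 ± SE, limma adjusted p = 0.013), or 2.13-fold with a wide 95% interval from 1.43 to 3.15. Without WT replicate 3 the change was 0.98 (limma adjusted p = 0.051), and within replicates 1 and 5 it was 1.11 (limma adjusted p = 0.064), so this call depended on the arrays included. Slc2a6, which encodes GLUT6, a lysosomal carrier, read 5.25, 5.26 and 5.58 against 5.32, 5.09 and 5.17. Its groups overlapped, and the 95% interval of the difference ran from −0.45 to 0.11 (limma adjusted p = 0.34). Slc2a10, which encodes GLUT10, had values of 4.02 to 4.22 under the WT and 4.03 to 4.15 under the KO label on one probe set (1419434_PM_at), at or below the nonspecific median. On the other (1449477_PM_s_at) the ranges were 5.32 to 5.52 and 5.32 to 5.44. Both differences were within 0.03 of 0, and their 95% intervals lay between −0.22 and 0.21.

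**Figure D2:**
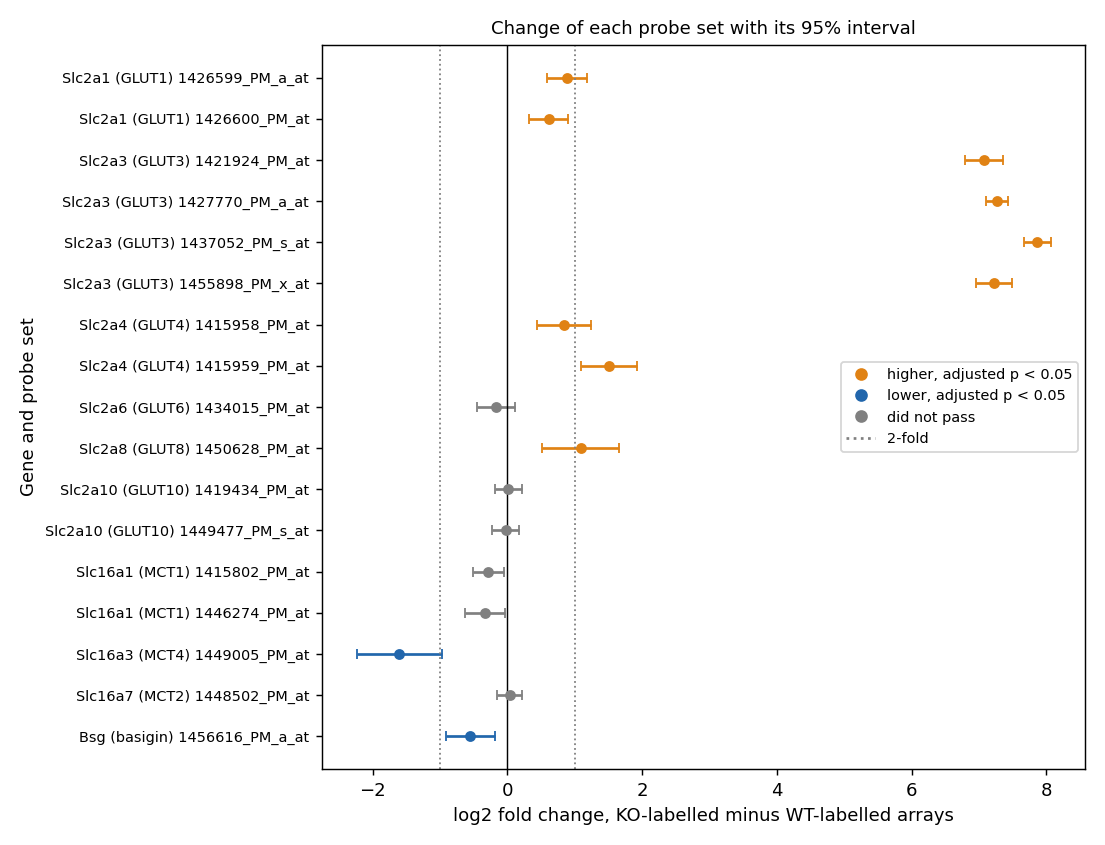
Log2 fold change (KO-labelled minus WT-labelled arrays, horizontal axis) of each of the 17 probe sets with its 95% interval from limma, coloured by whether it passed at an adjusted p under 0.05, with dotted lines at 2-fold. The interval of Slc16a3 runs from −2.24 to −0.96 and that of Bsg from −0.91 to −0.19, while the intervals of Slc2a6, Slc2a10 and Slc16a7 include 0.

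Slc16a3, which encodes the lactate exporter MCT4, had the largest decrease of the group. Its only probe set had values of 11.67, 11.46 and 11.80 with the WT label and of 10.45, 10.24 and 9.44 with the KO label. All KO-labelled values were lower than all WT-labelled values, and KO replicate 5 was the lowest. This is a change of −1.60 ± 0.26 (log2 ± SE, limma adjusted p = 0.0043), a 3.04-fold lower level with a 95% interval from 1.95 to 4.72. Without KO replicate 5 the change was −1.30 and still passed (limma adjusted p = 0.0018). The genes nearest in pattern were Cd99, Sgms1 and Rab34, at distances of 0.26, 0.41 and 0.42.

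Bsg, which encodes basigin, the ancillary protein of MCT1 and MCT4 that has also been found in complexes with CD98hc, was lower by a smaller margin. It had values of 11.18, 10.88 and 11.39 with the WT label and of 10.78, 10.46 and 10.56 with the KO label. The groups lay apart, with WT replicate 3 only just above KO replicate 1. This is a change of −0.55 ± 0.15 (log2 ± SE, limma adjusted p = 0.032). This call was lost when any of 4 arrays was left out (WT replicate 1 or 5, KO replicate 3 or 5), with changes of −0.53 to −0.43 and adjusted p-values of 0.078 to 0.091 from limma.

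Slc16a1, which encodes MCT1, the carrier for uptake and release of lactate and pyruvate in most cells, was not called. The brighter probe set (1415802_PM_at) read 10.56, 10.56 and 10.70 against 10.16, 10.43 and 10.39. The KO-labelled values all lay below the WT-labelled ones, by a mean of 0.28 ± 0.096 (log2 ± SE, limma adjusted p = 0.067). The dimmer one (1446274_PM_at) read 5.51, 5.65 and 5.44 against 5.06, 5.44 and 5.10, where KO replicate 3 and WT replicate 5 were almost equal, and differed by −0.33 ± 0.12 (log2 ± SE, limma adjusted p = 0.087). Their 95% intervals ran from −0.52 to −0.05 and from −0.63 to −0.04, so neither included 0 although the adjusted test was not passed. With array medians subtracted both passed, at −0.36 (limma adjusted p = 0.027) and −0.41 (limma adjusted p = 0.04). With replicate 3 against the others as a covariate the dimmer one passed (limma adjusted p = 0.013) and the brighter did not (limma adjusted p = 0.074). Of the alternative fits, the dimmer probe set passed in 6 of 14 and the brighter in 1 of 13, so this outcome depended on the processing. Slc16a7, which encodes MCT2, a carrier with high affinity for pyruvate, read 4.10 to 4.31 under the WT label and 4.22 to 4.25 under the KO label. All 6 values were near the nonspecific median, and the difference of 0.03 had a 95% interval from −0.15 to 0.21.

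GLUT1 and MCT4 are both known targets of hypoxia-inducible factor 1 (HIF-1), and their transcripts moved in opposite directions here. No RefSeq promoter was at hand for Slc2a3, Slc2a4, Slc16a7 and Bsg. RefSeq promoters of the GRCm38.p6 assembly, from 250 bases before to 50 bases after the start position of the promoter table, were at hand for the other 6 of the 10 genes. They were searched on both strands for ACGTG and GCGTG, the core letters of the HIF-1 site, and for CACGTG, the E-box, which contains ACGTG. The ACGTG core occurred in 4 of the 6 windows (Slc2a1, Slc2a10, Slc16a1 and Slc16a3) and in 19.6% of all 32851 promoters of the same length. GCGTG occurred in 4 of the 6 (Slc2a1, Slc2a6, Slc2a8 and Slc16a1) and in 32.4% of all. CACGTG occurred in Slc16a1 alone and in 7.15% of all. The stretches shown are those that hold ACGTG upstream of the start in a gene that rose, one that fell and one that did not pass, with the motif on either strand in capitals.
Slc2a1, chr4:119108645-119108744, plus strand: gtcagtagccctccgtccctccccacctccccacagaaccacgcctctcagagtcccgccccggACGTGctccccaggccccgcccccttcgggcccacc
Slc16a3, chr11:120948967-120949066, plus strand: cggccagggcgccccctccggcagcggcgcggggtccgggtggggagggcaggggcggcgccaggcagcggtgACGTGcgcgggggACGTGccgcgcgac
Slc16a1, chr3:104638414-104638513, plus strand: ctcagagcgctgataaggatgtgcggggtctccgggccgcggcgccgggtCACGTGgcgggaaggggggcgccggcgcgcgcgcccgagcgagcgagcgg
The Slc2a1 match began 36 bases before that start, and those of Slc16a3 began 27 and 14 bases before it. In Slc16a1 the E-box began 200 bases before the start. These windows are rich in G and C (65.3%, 73.3% and 73.7% of the 300 bases), and the matches are a description of letters, not of bound sites. For Slc16a3 the annotated gene span begins further upstream than the start used by the promoter table, so its stretch lies inside the span.

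Of 27 further measured regulators and common targets of HIF-1, 15 were lower and 3 higher, with a median log2 fold change of −0.80, against 18.4% lower, 21.6% higher and a median of 0.02 over all genes. Among the regulators, Egln1 (−1.24), Arnt (−0.77) and Vhl (−0.52) were lower and Egln2 (0.33) was higher. Since the list pools regulators with targets, its count and median give no direction of the pathway. The 2 largest decreases were in genes that also act on collagen. Lox, the collagen crosslinking oxidase, read 9.13, 8.96 and 9.74 against 4.94, 4.83 and 4.92, which is −4.38 ± 0.20 (change ± SE, limma adjusted p = 2.3e-05). Of its 3 probe sets, 2 were lower and the other differed by −0.15 and did not pass. P4ha2, a collagen prolyl hydroxylase, fell by 1.81 on the log2 scale (limma adjusted p = 0.0021), and the mitophagy receptor gene Bnip3l by 1.60 (limma adjusted p = 0.0017). Hif1a itself differed by −0.18 and did not pass. Fibroblast markers fell on the same arrays, as given above, and their part in this list was not tested. The 10 transporters are outside this list, 4 of them higher, led by Slc2a3 (7.87), and 2 lower. Its counts therefore do not cover all known HIF-1 targets, such as GLUT1 and MCT4. Some known HIF-1 targets stand in other lists here and did not share 1 direction. Hk2 was higher by 1.86 (limma adjusted p = 0.00022). Pdk1, a kinase that restrains pyruvate dehydrogenase, was higher by 1.78 (limma adjusted p = 0.0012, with all 3 probe sets higher). Ldha was lower by 0.25 (limma adjusted p = 0.028). The count of 15 lower genes was 11 without KO replicate 1. The count of 3 higher genes was not stable, being 1 without WT replicate 3, without WT replicate 5 or without KO replicate 5.

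**Figure D3:**
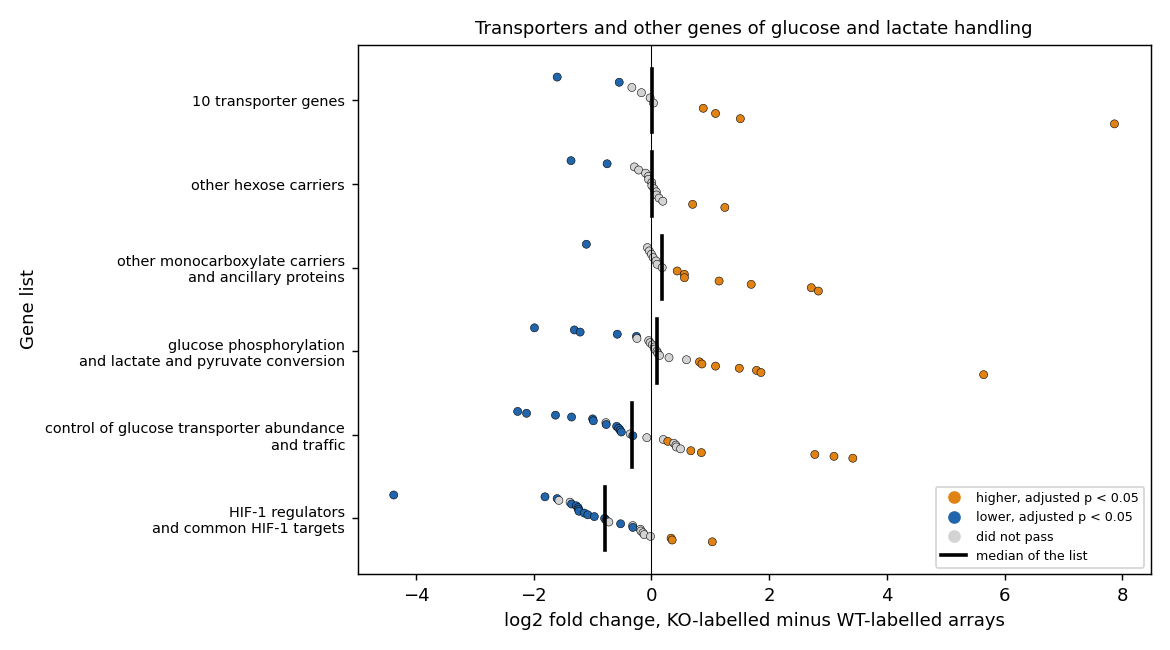
Log2 fold change (KO-labelled minus WT-labelled arrays, horizontal axis) of each measured gene in the group of 10 transporters and in 5 lists of related genes, coloured by whether it passed at an adjusted p under 0.05, with a black bar at the median of each list. The medians are 0.01 for the 10 transporters and −0.80 for the HIF-1 list, and Slc2a3 (7.87) and Ldhb (5.65) stand furthest to the right.

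Of 16 measured genes (further GLUT genes, sodium-coupled SLC5 carriers, SLC45 carriers and the SWEET homologue Slc50a1), 2 were higher, 2 were lower and 12 did not pass, with a median log2 fold change of 0.01, against 21.6% higher and 18.4% lower over all genes. Slc45a3, a sucrose carrier homologue, went from 6.81 ± 0.29 to 5.44 ± 0.035 (SD, n = 3 arrays per label) and fell by 1.37 on the log2 scale (limma adjusted p = 0.0007). Slc50a1 fell by 0.75 (limma adjusted p = 0.0038), and Slc5a11, a sodium-coupled inositol carrier, rose by 1.25 (limma adjusted p = 0.011). Slc2a2, Slc2a5, Slc2a9, Slc2a12 and Slc2a13 had log2 fold changes from −0.22 to 0.08, none of which passed.

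Among 15 further monocarboxylate carriers and ancillary proteins, 7 were higher and 1 was lower, with a median log2 fold change of 0.18, where 21.6% of all genes were higher and 18.4% lower. Emb, which encodes embigin, the ancillary protein of MCT2 and a relative of basigin, had values of 7.60, 8.15 and 8.38 with the WT label and of 10.76, 11.18 and 10.34 with the KO label. All KO-labelled values were higher, by 2.72 ± 0.27 (change ± SE, limma adjusted p = 0.00053), and its 4 probe sets were all higher with changes of 0.51 to 2.72. Nptn, which encodes neuroplastin, the other relative of basigin, had the one decrease of the list (−1.11, limma adjusted p = 0.005). Slc16a13, which encodes MCT13, rose from 4.36 ± 0.065 to 7.19 ± 0.19 (SD, n = 3 arrays per label), and Slc16a6, which encodes MCT7, rose from 5.36 ± 0.21 to 7.05 ± 0.34. The 3 glycoprotein partners of the family thus differed in direction, with basigin and neuroplastin lower and embigin higher.

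Of 23 measured genes of glucose phosphorylation and of lactate and pyruvate conversion, 7 were higher and 5 lower, shares near those over all genes (21.6% and 18.4%), with a median of 0.09. Ldhb, the lactate dehydrogenase subunit prominent in heart, rose from 5.76 ± 0.24 to 11.41 ± 0.19 (SD, n = 3 arrays per label), which is 5.65 ± 0.15 (change ± SE, limma adjusted p = 3.8e-06). Its second probe set gave 4.58. Ldha, the subunit prominent in muscle, fell by only 0.25 (limma adjusted p = 0.028). Hk1, the widespread hexokinase that traps glucose after uptake, fell from 9.73 ± 0.18 to 7.74 ± 0.27, while Hk2, the inducible form, rose from 9.07 ± 0.26 to 10.93 ± 0.15 (SD, n = 3 arrays per label). These are log2 fold changes of −1.99 and 1.86, both with an adjusted p of 0.00022 from limma.

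Of 26 measured genes that control the abundance and traffic of glucose carriers, 12 were lower and 6 higher, with a median of −0.34, and of all genes 18.4% were lower and 21.6% higher. The largest changes were increases. Txnip, the glucose-induced arrestin that brings GLUT1 and GLUT4 into the cell, read 7.17, 6.75 and 7.68 against 10.82, 10.61 and 10.44, which is 3.42 ± 0.24 (change ± SE, limma adjusted p = 0.00012). Its paralogue Arrdc4 rose by 2.78 (limma adjusted p = 0.00015), and Sort1, which encodes the sorting receptor sortilin of GLUT4 vesicles, by 3.10 (limma adjusted p = 0.0011). Every probe set of these 3 genes was higher on the KO-labelled arrays. The largest decrease of the list was in Akt1 (−2.27, limma adjusted p = 0.00011), with all 3 of its probe sets lower.

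**Figure D4:**
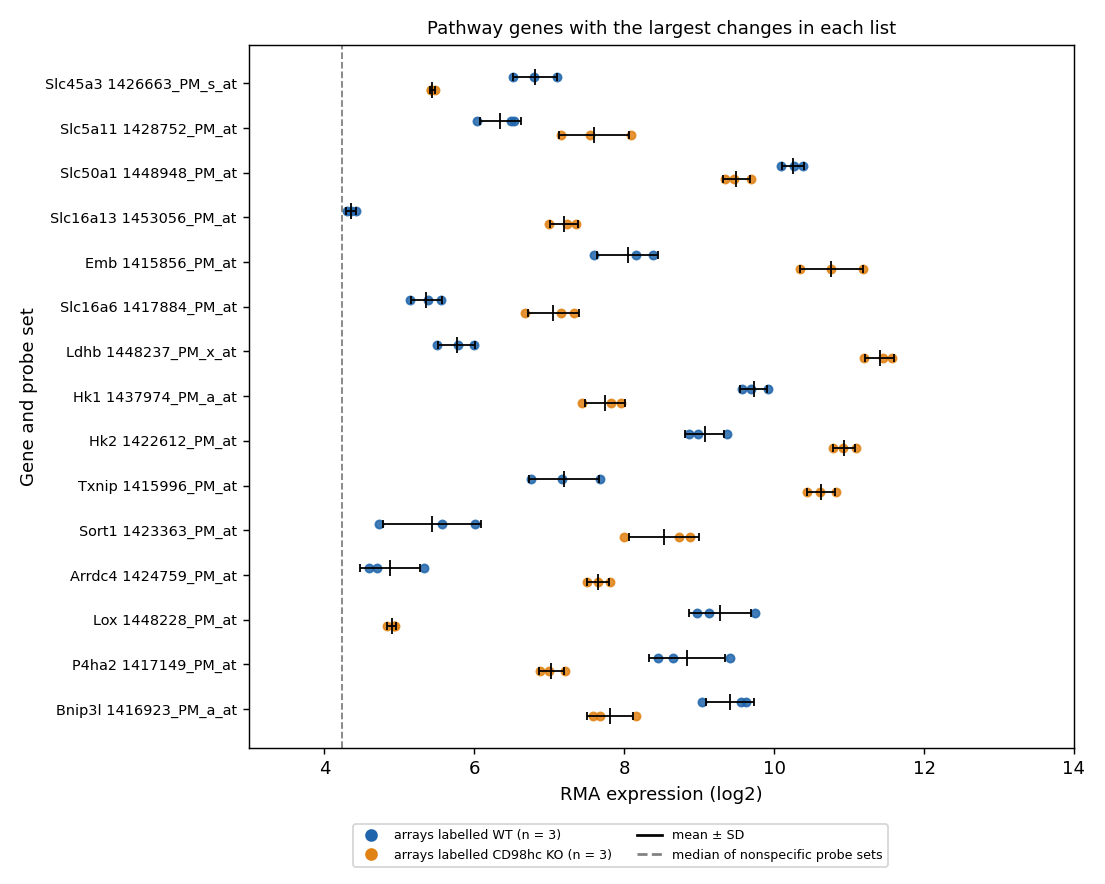
RMA expression (log2, horizontal axis) of the 3 genes with the largest changes in each of the 5 related lists, on each array labelled WT (blue) or CD98hc KO (orange), with black marks for mean ± SD per label and the nonspecific median (4.23) dashed. In each of the 15 genes the 3 values under one label lie apart from the 3 under the other. Lox, for example, lies between 8.96 and 9.74 under the WT label and between 4.83 and 4.94 under the KO label. The genes were picked as the largest changes among those that passed, so this separation follows from the choice. Of all genes, 51.5% did not overlap.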

How the data were processed

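The authors deposited a table of log2 values per probe set, made by RMA (named without a version in the submitters' processing notes, with affyPLM in the paper's methods), which corrects background, normalises the arrays and condenses the probes into 1 value. All 6 columns entered as they are. The table has 45141 probe sets, 104 of them controls. A single symbol was available for 28898, several for 551 and none for 15692. Gene identifiers matched 28689 to RefSeq (GRCm38.p6), with 0 symbols changed.

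The difference between labels was estimated for all 45037 remaining probe sets in limma 3.58.1 under R 4.3.3 (lmFit, eBayes), and Benjamini-Hochberg adjustment ran over all of them. A scan-batch covariate, part of the study's model, was left out because nothing assigns arrays to scan batches here. With 3 against 3 arrays the smallest exact permutation p is 0.1, and so few arrays limit precision. The calculation was tested on simulated data with independent noise and no shift of replicate 3. Of 50 changes set at each log2 size, it called 12 at 0.5, 34 at 1, 43 at 2 and 50 at 4. It also called 12 unchanged probe sets. Only these few of 45037 probe sets were changed there, whereas 32.7% passed on the arrays. The adjustment was therefore stricter in the simulation, and its call rates cannot be carried over to the arrays. Many changes of 0.5 were missed in the simulation. Lists are described by counts and medians alone.

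The members and lists were chosen with earlier results of these data known, the lists from textbook knowledge. Genes named outside the 10 are the 3 largest changes of each list, the largest changes of marker lists and the 3 nearest patterns to the highest and lowest member and to Slc2a1. Foxa2, Gata4, Sox17, Lum, Pdgfra, Rbfox3, Snap25, Nefm, Hif1a, Egln1, Egln2, Arnt, Vhl, Akt1, Nptn, Ldha, Pdk1 and the further GLUT genes were named after their values were seen. Alternatives covered replicate 3 against the others, the replicate block, each array, probe set choice, normalisation, a filter, the variance model, the adjustment and the fold limit. Plots were made in matplotlib 3.10.9 (Python 3.11.15).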

Additional observations from a re-analysis of the deposited data

How the results depend on the processing

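Slc2a3, Slc16a3, both probe sets of Slc2a4 and the more variable one of Slc2a1 kept their direction and an adjusted p under 0.05 in every alternative fitted per probe set (13 or 14 each). The fold limit is separate, and Slc2a1 and the second probe set of Slc2a4 stayed under 2-fold. Same-numbered arrays were not shown to be paired (correlations of their deviations from the group means of 0.057, 0.558 and 0.152 for replicates 1, 3 and 5, with not every array closest to its own number). With the replicate number as a block, 7518 genes passed instead of 6845, of the 10 transporters 4 were higher and 3 lower, and the added one was Slc16a1. Within replicates 1 and 5, 0 other hexose carriers were higher and 1 lower, and 5 genes of phosphorylation and conversion were higher and 3 lower. With array medians subtracted, 1 HIF-1 gene was higher and 17 were lower. With a change over 2-fold required, 3 transporters were higher and 1 lower, and 1 hexose carrier was higher and 1 lower. By that limit 4 monocarboxylate genes were higher and 1 lower, and 5 genes of phosphorylation and conversion were higher and 3 lower. Of abundance and traffic, 3 genes were higher and 4 lower, and of the HIF-1 list 1 gene was higher and 10 were lower. Over all genes the limit left 9.24% higher and 10.1% lower. With 1 array left out, 3 to 4 transporters were higher and 1 to 2 lower (1 without WT replicate 1, WT replicate 5 or KO replicate 5). In these fits 1 to 2 hexose carriers were higher (1 without WT replicate 1 or 3) and 2 lower. Of the HIF-1 list, 1 to 2 genes were higher and 11 to 15 lower. Signs changed only in probe sets that did not pass. Slc2a10 gave −0.023 to 0.076 (1419434_PM_at) and −0.057 to 0.043 (1449477_PM_s_at) and Slc16a7 −0.016 to 0.085 with 1 array left out. Within replicates 1 and 5 Slc2a10 (1449477_PM_s_at) gave 0.0081, and with array medians subtracted Slc2a10 (1419434_PM_at) gave −0.064 and Slc16a7 −0.043. The causes were not tested. With dim probe sets left out, Slc2a10 (1419434_PM_at) and Slc16a7 had no value.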
